A study of Populus tremula x Populus alba with 6 samples.

Results

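The 9 genes described here encode later enzymes of monolignol synthesis in poplar, from the shikimate transferase HCT to the alcohol dehydrogenase CAD. They are HCT1, HCT6, C3H3, CCoAOMT1, CCoAOMT2, CCR2, CAld5H1, CAld5H2 and CAD1, described out of 10 genes chosen by identifier for their place in the pathway. The files list identifiers without names, and the 10 identifiers were present among the 32049 listed genes. All 10 also passed the filter on low counts, with 24991 genes tested in all.

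Monolignols are the phenolic alcohols that plants export to the cell wall and couple into lignin. After a common entry from phenylalanine, HCT and C3H hydroxylate the ring by way of a shikimate ester, CCoAOMT adds a methyl group, and CCR and CAD reduce the product to coniferyl alcohol, the precursor of guaiacyl lignin. CAld5H hydroxylates the ring once more and so opens the branch to sinapyl alcohol, the precursor of syringyl lignin. In stems the pathway is most active in developing xylem and fibres, of which a shoot apex holds only the first strands.

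RNA was taken from the shoot apex of 6 plants of the Populus tremula x Populus alba hybrid 717-1B4, a clone widely used for poplar transformation. The 3 controls (CTRL) were wild type, and the other 3 plants (RNAi) carried a knock-down construct against DDM1, a chromatin remodeller that maintains DNA methylation. Every plant, controls included, grew in compost at 21 °C under 16 h of light, went through a water deficit that lasted 3 weeks and was watered again for 1 week. Harvest came 115 days after planting. The comparison is therefore between genotypes after the same drought, with no unstressed plants. The labels give neither the promoter of the construct nor the transformed line of each plant, so effects of a line and of the knock-down cannot be told apart. The level of DDM1 and markers of the apex were not analysed here, so the knock-down was not checked in these plants.

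With the counts in no gene included, libraries held between 14054541 and 19545759 counts, of which 86.9% to 88.3% fell in genes on the sense strand. Levels are given in CPM, each gene's counts relative to a library size scaled with trimmed-mean (TMM) factors. Since no gene lengths were used, levels are compared between libraries and not between genes. RNAi 2 stood apart from the other libraries, with the highest level of all 6 libraries in 23.7% of tested genes and the lowest in 23.3%. The design text calls the plants of a group biological replicates.

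None of the 9 genes passed edgeR's quasi-likelihood test of RNAi against CTRL apices (adjusted p from 0.80 to 0.99), in which 0.00400% of all tested genes, 1 gene, were called. Fitted log2 fold changes of RNAi against CTRL ran from -0.01 for CCoAOMT1 to 0.57 for CAld5H2, with a median of 0.23, against a median of -0.00096 over all tested genes. The median of the set was 0.09 without RNAi 2 and 0.36 without RNAi 1. The fitted value was below 0 for 1 of the 9, CCoAOMT1, and for 50.2% of all tested genes. TMM scaling draws the fold changes of all tested genes toward a centre of 0, which bears on their median and on this share. With library size only, the median was 0.19 for the 9 genes and -0.036 over all tested genes. At an unadjusted p under 0.05, edgeR held 1 of the 9, CAld5H2, with the higher level in RNAi. In edgeR 5.64% of all tested genes met that threshold, and 3.08% of all tested genes met it with the higher level in RNAi. DESeq2 and limma-voom also called none of the 9, and each held 1 of the 9 at an unadjusted p under 0.05. Among all its genes, DESeq2 called 0.124% and had 4.82% at that unadjusted threshold, and limma-voom called 0.00800% and had 5.39%.

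**Figure D1:**
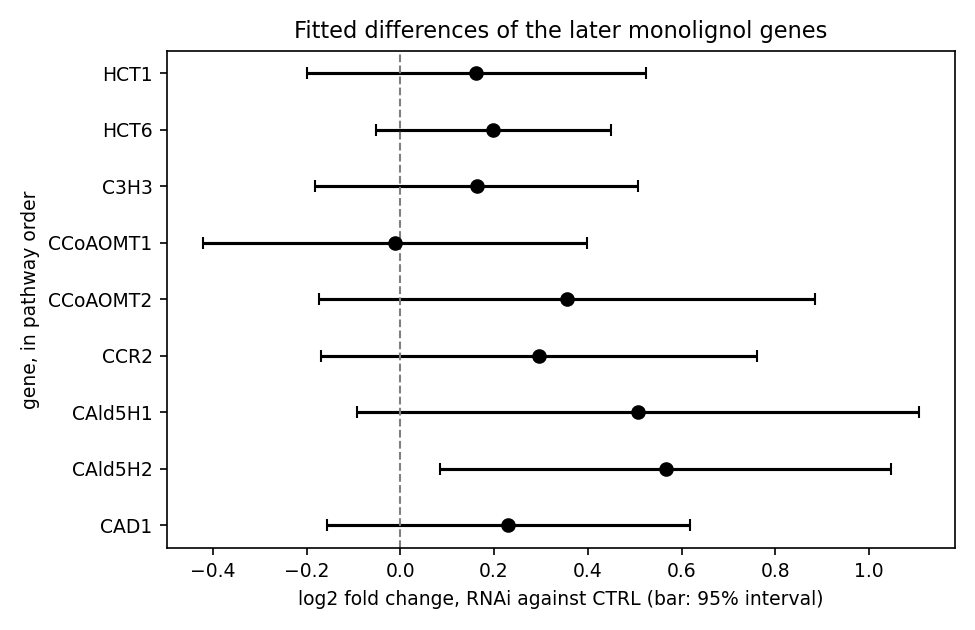
Fitted log2 fold change of RNAi against CTRL for each gene, in pathway order, with its 95% interval before any adjustment for the number of genes tested. The interval of CAld5H2 lies above 0, from 0.09 to 1.05, and those of the other 8 genes include 0.

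HCT, the hydroxycinnamoyl transferase that opens this stretch of the pathway by loading p-coumarate onto shikimate, was represented by HCT1 (Potri.003G183900, chromosome 3) and HCT6 (Potri.001G042900, chromosome 1). HCT1 stood at 62.0, 67.7 and 69.4 CPM in CTRL 1, 2 and 3 and at 69.0, 90.4 and 63.5 CPM in RNAi 1, 2 and 3. RNAi 2 lay above every other library, while RNAi 1 and RNAi 3 fell within the range of the CTRL plants. The fitted log2 fold change was 0.16 ± 0.16 (SE), and without RNAi 2 it was -0.0052, with the sign turned. It was 0.26 without RNAi 3.

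HCT6 was the only one of the 9 genes whose groups did not overlap, with RNAi above CTRL. Among all tested genes the groups did not overlap in 11.8%, and in 5.75% RNAi lay above. The levels of HCT6 were 23.5, 24.3 and 24.2 CPM in CTRL 1, 2 and 3 and 27.2, 26.9 and 28.4 CPM in RNAi 1, 2 and 3. The spread between plants was the smallest of the set, with a coefficient of variation of 1.87% in CTRL and 2.95% in RNAi. Counting error alone gives 5.43% and 4.82% at these depths of 271 to 493 counts per library. The measured spread was below it in both groups. An SD from 3 plants is imprecise, and whether the spread differed from counting error was not tested. The fitted log2 fold change of HCT6 was 0.20 ± 0.11 (SE), and edgeR's adjusted p was 0.80. Its 95% interval ran from -0.05 to 0.45, so that a change beyond 1.37-fold upward lay outside it.

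C3H3 (Potri.006G033300, chromosome 6) encodes the cytochrome P450 that hydroxylates the shikimate ester made by HCT. It was measured at 54.3, 67.0 and 56.5 CPM in CTRL 1, 2 and 3 and at 55.9, 73.0 and 70.1 CPM in RNAi 1, 2 and 3. The groups overlapped, because RNAi 1 lay below CTRL 2 and CTRL 3. CTRL 2, the highest control, lay below RNAi 2 and RNAi 3. The fitted log2 fold change of 0.16 ± 0.15 (SE) was 0.09 without RNAi 2, 0.27 without RNAi 1 and 0.26 without CTRL 2.

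The methyltransferases CCoAOMT1 (Potri.009G099800, chromosome 9) and CCoAOMT2 (Potri.001G304800, chromosome 1), which turn caffeoyl-CoA into feruloyl-CoA, had unlike values across the plants. CCoAOMT1 had 133, 94.8 and 116 CPM in CTRL 1, 2 and 3 and 104, 135 and 102 CPM in RNAi 1, 2 and 3. Its highest values came from 1 plant of each group, RNAi 2 and CTRL 1, and the group means were 115 ± 19.1 CPM in CTRL and 114 ± 18.6 CPM in RNAi (SD, n = 3 each). The 95% interval of the fold change ran from 0.747 to 1.32, so that neither a modest decrease nor a modest increase was resolved.

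CCoAOMT2 was measured at 149.7, 144 and 113 CPM in CTRL 1, 2 and 3 and at 129.8, 231 and 159 CPM in RNAi 1, 2 and 3. RNAi 2 again lay far above the rest, and RNAi 1 lay below both CTRL 1 and CTRL 2. The fitted log2 fold change of 0.36 ± 0.23 (SE) was 0.09 without RNAi 2 and 0.53 without RNAi 1.

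CCR2 (Potri.003G181400, chromosome 3), the reductase that commits feruloyl-CoA to the monolignol branch, ordered the 6 libraries exactly as CCoAOMT2 did, from RNAi 2 at the top to CTRL 3 at the bottom. Its levels were 151, 148 and 116 CPM in CTRL 1, 2 and 3 and 139.9, 217 and 152 CPM in RNAi 1, 2 and 3. The groups overlapped, and the log2 fold change of 0.30 ± 0.20 (SE) was 0.08 without RNAi 2 and 0.18 without CTRL 3. Across the 6 libraries the log2 CPM of CCR2 and CCoAOMT2 had a Pearson r of 0.99, the highest of the 36 pairs that the 9 genes form.

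CAld5H1 (Potri.005G117500, chromosome 5) and CAld5H2 (Potri.007G016400, chromosome 7) encode the P450 hydroxylase that opens the syringyl branch, and they had the largest fitted differences of the set. CAld5H2 stood at 30.4, 19.5 and 17.7 CPM in CTRL 1, 2 and 3 and at 29.7, 35.9 and 34.0 CPM in RNAi 1, 2 and 3. The RNAi plants were close to one another, and the groups overlapped only because CTRL 1 lay just above RNAi 1. The means were 22.5 ± 6.88 CPM in CTRL and 33.2 ± 3.16 CPM in RNAi (SD, n = 3 each), a fitted fold of 1.48 with a 95% interval from 1.06 to 2.07. In edgeR's quasi-likelihood test the unadjusted p was 0.026, the adjusted p was 0.80, and the gene ranked 694 by p among the 24991 tested. With 1 library left out, the log2 fold change of 0.57 lay between 0.42 (without CTRL 3) and 0.85 (without CTRL 1), and the gene was called in none of these fits. In 4 of these 6 fits of edgeR the unadjusted p also missed 0.05. It was 0.086 without CTRL 2, 0.096 without CTRL 3, 0.067 without RNAi 2 and 0.057 without RNAi 3. In the remaining fits of edgeR the unadjusted p was 0.00070 without CTRL 1 (adjusted p = 0.53) and 0.030 without RNAi 1.

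CAld5H1 had the fewest counts of the set, 132 to 299 per library. Its levels were 12.12, 12.10 and 8.12 CPM in CTRL 1, 2 and 3 and 10.1, 18.4 and 17.2 CPM in RNAi 1, 2 and 3. RNAi 2 and RNAi 3 lay above all CTRL libraries, and RNAi 1 lay among them. The fitted log2 fold change of 0.51 ± 0.26 (SE) had an edgeR adjusted p of 0.80. It was 0.73 without RNAi 1 (edgeR unadjusted p = 0.010, adjusted p = 0.55) and 0.34 without CTRL 3. In 5 of the 6 fits of edgeR with 1 library left out, the unadjusted p was 0.05 or more.

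CAD1 (Potri.009G095800, chromosome 9), the dehydrogenase that makes the alcohols from their aldehydes in the last step, was measured at 85.8, 103 and 94.0 CPM in CTRL 1, 2 and 3. In RNAi 1, 2 and 3 it had 90.1, 132 and 109 CPM. RNAi 2 and RNAi 3 were the highest libraries, and RNAi 1 lay below CTRL 2 and CTRL 3. The log2 fold change was 0.23 ± 0.17 (SE), and it was 0.08 without RNAi 2 and 0.36 without RNAi 1.

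**Figure D2:**
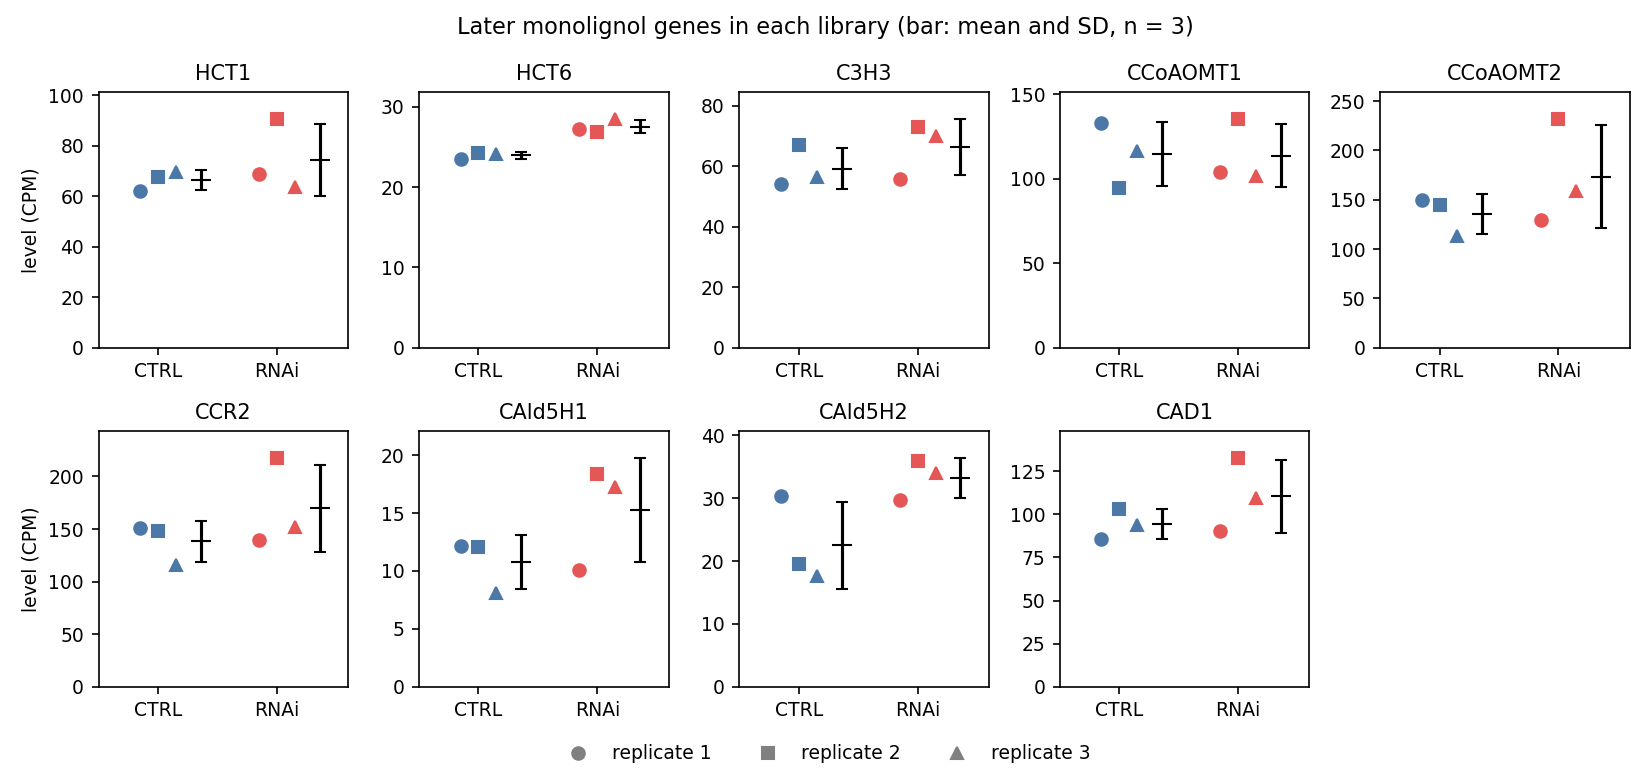
Level in CPM of each gene in each library, with the axis from 0, 1 point per plant, and the mean and SD of each group (n = 3) as a black bar. HCT6 is the only gene without overlap of the groups, at 23.5 to 24.3 CPM in CTRL and 26.9 to 28.4 CPM in RNAi.

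Most of the 9 genes had their highest value in the same plant. RNAi 2 had the highest level of all 6 libraries in 8 of the 9 genes and RNAi 3 in the other, HCT6. The lowest level was in CTRL 1 for 4 genes, in CTRL 3 for 4 and in CTRL 2 for 1. Each gene's deviation from its own mean over the libraries was taken in log2 CPM (prior count 2). The median deviation of the set was 0.39 in RNAi 2 and 0.11 in RNAi 3. It was -0.12 in RNAi 1, below CTRL 1 and CTRL 2 (-0.05 each), and -0.14 in CTRL 3. Over all tested genes the same median lay between -0.0064 and 0.014 in every library, and TMM scaling itself brings it near 0. By the median of the set RNAi 1 lay among the controls, and the groups did not part.

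**Figure D3:**
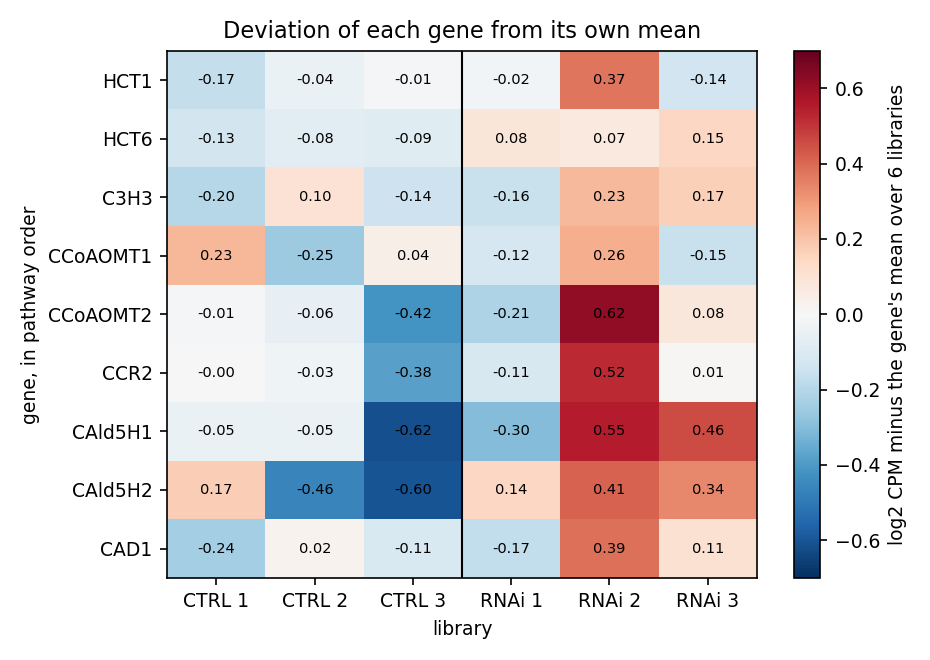
Difference of log2 CPM from the gene's own mean over the 6 libraries, with genes in pathway order as rows and libraries as columns. RNAi 2 is above the mean for all 9 genes, by 0.07 to 0.62, and CTRL 3 is above it for CCoAOMT1 alone (0.04).

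Added over the 9 genes, the level was 701, 681 and 615 CPM in CTRL 1, 2 and 3 and 656, 961 and 736 CPM in RNAi 1, 2 and 3. The groups overlapped, since RNAi 1 lay below CTRL 1 and CTRL 2. The means were 666 ± 45.1 CPM in CTRL and 784 ± 158 CPM in RNAi (SD, n = 3 each), a log2 ratio of 0.24 that was 0.06 without RNAi 2 and 0.35 without RNAi 1. Genes with more counts weigh more in this sum. With the 9 genes weighed alike, as the mean of their log2 CPM, RNAi minus CTRL was 0.26. Neither difference was tested. Were the sum to differ, more lignifying cells and more RNA per cell could not be told apart in tissue of many cell types.

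The log2 CPM values of the 9 genes had a median pairwise Pearson r of 0.55 over the 6 libraries, with 34 of the 36 pairs above 0. The median over all pairs of tested genes was -0.0005, with 49.9% of pairs above 0. All pairs share the same libraries and scaling, and these values are a description of the 6 plants. With the deviations taken from each group's own mean, the median was 0.54. Without RNAi 2 the median r was 0.25 over 5 libraries, with 21 of the 36 pairs above 0, and with any other library left out it lay between 0.55 and 0.69. CCR2 with CCoAOMT2 and C3H3 with CAD1 (r = 0.93) were the closest pairs, and without RNAi 2 their r was 0.96 and 0.97. CCoAOMT1 was the least tied to the rest, with a median r of 0.28 with the other 8 genes and a highest r of 0.46, with CCoAOMT2. The lowest r was that of CCoAOMT1 with HCT6, at -0.23.

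The spread between plants differed from gene to gene. The biological coefficient of variation is edgeR's estimate of the spread beyond counting error, with each gene's value drawn toward those of other genes. Its median was 0.175, against 0.153 over the 12897 tested genes within the same range of average level. The coefficient was largest for CAld5H1 (0.231) and CCoAOMT2 (0.213) and smallest for HCT6 (0.121). For HCT6, whose measured spread was below counting error, the value does not come from its own plants alone. The highest library exceeded the lowest by 1.21-fold in HCT6 and by 2.26-fold in CAld5H1.

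The split between paralogs, which does not depend on the scaling of libraries, overlapped between the groups for all 3 pairs among the 9 genes. These shares are of counts and not of transcripts, because the lengths of the paralogs and the reads lost to multiple mapping between them were not used. CCoAOMT1 held 47.0%, 39.6% and 50.8% of the counts of the CCoAOMT pair in CTRL 1, 2 and 3. In RNAi 1, 2 and 3 it held 44.6%, 36.9% and 39.0%, with RNAi 2 the lowest of all libraries. The means differed by -5.67 percentage points, RNAi minus CTRL (exact two-sided permutation p = 0.20, and 0.60 adjusted over the 3 pairs).

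HCT1 held 73.4 ± 0.81% of the counts of HCT1 and HCT6 in CTRL and 72.6 ± 4.07% in RNAi (SD, n = 3 each, exact permutation p = 0.70). Its share lay between 72.6% and 74.2% in the CTRL plants and was 71.7%, 77.1% and 69.1% in RNAi 1, 2 and 3. CAld5H1 held 32.8 ± 5.04% of the counts of the CAld5H pair in CTRL and 31.0 ± 4.83% in RNAi (exact permutation p = 0.70). Both of these pairs had an adjusted permutation p of 0.70, and 3 against 3 libraries cannot reach a p below 0.10.

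HCT6 and C3H3 differed from the other 7 genes in their counts on the opposite strand, which the comparison of levels does not use. Opposite-strand counts made up 18.4% of the stranded counts of HCT6 (521 counts) and 20.7% of those of C3H3 (1471 counts) over the 6 libraries. For the other 7 genes this share lay between 0.048% for HCT1 and 1.10% for CAld5H1. The median over tested genes was 0.162%, and 3.08% of tested genes exceeded 10%. In HCT6 the share was 21.2%, 23.9% and 15.5% in CTRL 1, 2 and 3 and 13.8%, 19.2% and 17.6% in RNAi 1, 2 and 3. In C3H3 it was 20.9%, 21.3% and 24.9% in CTRL 1, 2 and 3 and 22.2%, 19.7% and 16.3% in RNAi 1, 2 and 3. Both genes thus carried such counts in every plant, and the groups overlapped.

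A fit to the opposite-strand counts called neither gene, with log2 fold changes of -0.02 for HCT6 and -0.0082 for C3H3 (adjusted p = 0.997 each, quasi-likelihood test of edgeR). Of the 1725 genes with enough such counts 0.0580% were called, and the other 7 genes were not among those tested. For C3H3 the counts of both strands added up to the unstranded count, 7118 in all. For HCT6 the unstranded count was 2683, which is 144 fewer than the sum of both strands. Fitted to the unstranded counts, the log2 fold changes were 0.15 for HCT6 and 0.10 for C3H3, below those of the sense counts (0.20 and 0.16). The source of these opposite-strand counts was not tested.

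**Figure D4:**
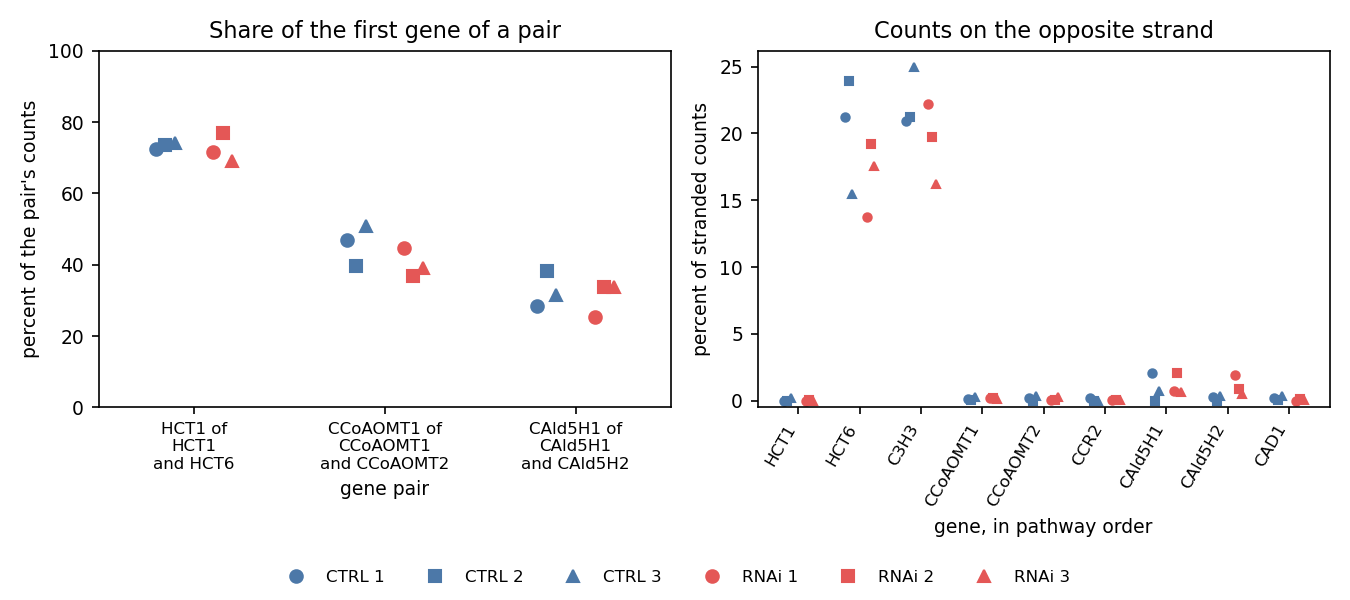
Left, the share of a pair's sense counts that the first gene holds in each library, in percent. Right, the share of each gene's stranded counts that lies on the opposite strand, in percent, with HCT6 (13.8% to 23.9%) and C3H3 (16.3% to 24.9%) far above the other 7 genes.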

How the data were processed

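The deposited values are raw counts per gene, 1 file per library, for unstranded, forward-strand and reverse-strand reads, per the file headers. STAR is the tool that the submitters' processing notes name. The version of STAR, the annotation and the build of the genome were not given in the sources used here. Libraries were polyA-selected, paired-end and stranded, per the labels' protocols. The reverse column was used because it held the sense reads. The 4 summary lines that name no gene (11.7% to 13.1% of counts) stayed out of library sizes and tests.

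RNAi was compared with CTRL over all genes with edgeR 4.0.16 in R 4.3.3 (quasi-likelihood F test, two-sided, robust, TMM factors, filterByExpr), with Benjamini-Hochberg adjustment over the 24991 tested genes and a threshold of 0.05. The procedure was also run on simulated data. How often it recovers changes as small as those fitted for the named genes is not reported here. The simulation therefore does not show that such changes would have been called. A standard error is the log2 fold change over the square root of its F value. The alternatives were DESeq2 1.42.0, limma-voom (limma 3.58.1), other scaling and filters, the replicate number as a block, the unstranded column and leaving out each library. A count of 0 allows up to 3 counts, 0.173 to 0.260 CPM, and covers counting error only. No 2 libraries agreed within sampling noise, with a chi-square of 8.17 to 41.0 for each degree of freedom. The lowest value was between plants of different groups, CTRL 1 and RNAi 1. Within a group the lowest was 15.5, CTRL 2 with CTRL 3.

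The 10 genes, the lists and the tests were chosen with earlier results of these data known. Of the 10 genes, 1 is not reported here and is left out of every count, sum and median over the set, and the other 9 are named. Lists of other pathway genes, of xylem and meristem markers and of promoter motifs were not used here, for want of a table that names the identifiers.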

Additional observations from a re-analysis of the deposited data

How the results depend on the processing

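None of the 9 genes was called in any of 14 alternatives (0 of 9 in each), and 122 of their 126 recomputed fold changes kept their sign. The 4 that turned came from leaving out 1 library. With 1 library left out, the log2 fold change lay between -0.0052 and 0.26 for HCT1 and between -0.16 and 0.11 for CCoAOMT1. The log2 ratio of the summed level lay between 0.06 and 0.35. The difference in paralog share, in percentage points, lay between -3.05 and 0.946 for HCT1, between -8.75 and -3.18 for CCoAOMT1 and between -3.94 and 0.991 for CAld5H1. Over all genes the count of 1 was 37 with DESeq2, 2 with limma-voom and 0 with library size only, with at least 1 CPM in 3 libraries and with the replicate block, and 0 to 7 with 1 library left out (7 without RNAi 1). At an unadjusted p under 0.05 these 3 fits of 0 calls held 1300, 1338 and 1515 genes. The cause was not tested. Deviations from the group means had correlations of 0.24, -0.02 and -0.03 between the plants numbered 1, 2 and 3. The highest between plants of different groups was 0.42, CTRL 2 with RNAi 3. Replicate numbers thus did not pair the plants throughout, although CTRL 1 and RNAi 1 were the closest libraries by chi-square (8.17). Leaving out libraries for the pairwise r and the comparison of strands were chosen after seeing the data. CAld5H1 had the widest 95% interval of the 9 genes, from -0.09 to 1.11 on the log2 scale. Its coefficient of variation between plants was 21.4% in CTRL and 29.4% in RNAi, where counting error alone gives 8.18% and 6.43%.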
